A study of Homo sapiens with 2 samples.

Results

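Transcripts of 6 globin genes were described in 2 RNA sequencing libraries, 1 from untreated THP1 cells and 1 from THP1 cells treated with bort (bortezomib, an inhibitor of the proteasome) for 24 h. The genes were selected by name: HBZ, HBA1 and HBA2 of the alpha-globin locus on chromosome 16, and HBE1, HBG1 and HBG2 of the beta-globin locus on chromosome 11. All 6 were found among the 10987 genes of the table. They were chosen on their measured levels in these same libraries, so their levels and fold changes are given as a description and no test was made. THP1 is an established human monocytic leukaemia line that carries the MLL-AF9 fusion. The bort concentration used for these libraries is not given in the sources used here, and with 1 library per condition a difference between the libraries has no replicate check.

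Haemoglobin is built from alpha-like and beta-like chains in equal number, and each chain holds a haem group. In the human embryo the alpha-like chain is zeta (HBZ) and the beta-like chain is epsilon (HBE1). Later the alpha chains (HBA1 and HBA2) replace zeta for the rest of life, while the beta-like chain is gamma (HBG1 and HBG2) in the fetus. Within each locus these genes lie in the order of their use and share a distant enhancer region, and they are known as genes of erythroid cells, not of monocytes.

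Levels are given in FPKM, a measure of sequenced fragments that allows for transcript length and for library size, so genes of different length can be compared. Wherever a pair of FPKM values is given, the untreated library stands first and the bort library second. The deposited values summed to 210026 and 221529 FPKM over all genes, with medians of 5.85 and 6.02 FPKM. Read numbers are not known, which leaves these levels without a counting error. The levels went against the label of a monocytic line. Of 20 monocytic and myeloid marker genes 8 were listed, ranging from 0.101 to 7.61 FPKM without bort and from 0.105 to 28.7 FPKM with it, summing to 26.2 and 65.4 FPKM. The monocytic markers CD14 and CSF1R and the myeloid marker MPO were not listed. Of 15 erythroid marker genes outside the globins 12 were listed, summing to 533.2 and 530.1 FPKM, of which RHAG alone held 221.8 and 363.3 FPKM. The libraries are therefore named by their treatment labels here. In bulk RNA, fewer cells of a type and less RNA per cell cannot be told apart.

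Globin transcripts were abundant in both libraries, and the loci differed between them. As deposited, the alpha-like genes were lower in the bort library, and HBZ was the lowest relative to its untreated level. Among the beta-like genes HBE1 was higher in the bort library, whereas HBG1 and HBG2 stood at nearly the same FPKM in both. Together the 6 genes held 4450 and 3947 FPKM, which was 2.12% and 1.78% of the summed FPKM of all genes.

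**Figure D1:**
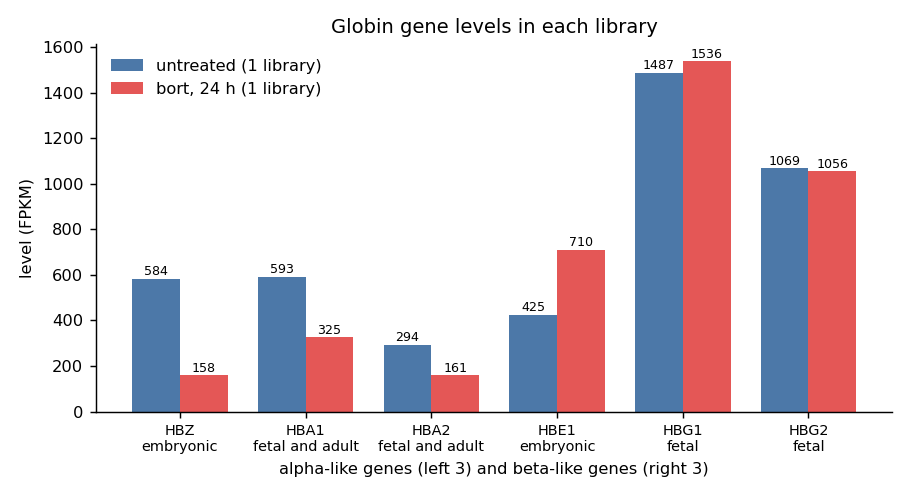
Level in FPKM (y axis, linear from 0) of each of the 6 globin genes in the untreated and the bort library, 1 bar per library with no error bar because each condition has 1 library. The 3 alpha-like genes on the left are lower in the bort library, HBE1 is higher, and HBG1 and HBG2 are close to level.

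HBZ, the embryonic alpha-like gene, was at 584 and 158.5 FPKM, 3.69-fold lower with bort. Measured ratios such as this one are ratios of FPKM itself. It went from rank 28 to rank 151 among all genes by FPKM. On the log2(FPKM + 1) scale, which is used for every log2 fold change and for the 2-fold and 1.5-fold thresholds, the difference was -1.88, and 172 of the 10987 genes lay below it. Among the 285 genes that averaged 100 FPKM or more over the libraries, 3 lay below HBZ in fold change. These ranks do not allow for the trend of fold changes with GC content over all genes. With this trend removed, the log2 fold change of HBZ was -1.25, and 84 of the 1091 genes of like GC content lay below HBZ as deposited.

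HBA1 and HBA2, which encode the alpha chain, were lower by nearly the same factor. HBA1 was at 592.6 and 325.4 FPKM, and HBA2 at 293.5 and 160.8 FPKM. Both log2 fold changes were -0.86, short of a 2-fold decrease, and -0.28 once the trend of fold changes with GC content over all genes was removed. The ratio of HBA1 to HBA2 was 2.02 in both libraries.

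HBE1, the embryonic beta-like gene, went the other way. It was at 424.7 and 710.3 FPKM, 1.67-fold higher with bort, with a log2 fold change of 0.74. Its rank moved from 41 to 27.

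HBG1 and HBG2, which encode the gamma chains of fetal haemoglobin, had the highest levels of the 6 genes in both libraries. HBG1 was at 1487 and 1536 FPKM, a log2 fold change of 0.047. HBG2 was at 1069 and 1056 FPKM, a log2 fold change of -0.017. Neither direction was stable, since the sign of HBG1 turned when totals that leave out the 6 globin genes set the scaling and that of HBG2 turned with upper quartile scaling, with totals that leave out the 20 most abundant genes and with the trend with GC content removed. Their ranks were 6 and 7 in the untreated and 11 and 16 in the bort library.

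In the untreated library the order of levels was HBG1, HBG2, HBA1, HBZ, HBE1 and HBA2. There HBA1 at 592.6 FPKM and HBZ at 584 FPKM stood next to each other. In the bort library the order was HBG1, HBG2, HBE1, HBA1, HBA2 and HBZ, with HBA2 at 160.8 FPKM just above HBZ at 158.5 FPKM. Without replicates, neighbours in either order cannot be set against a spread.

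At a threshold of 2-fold, 1 of the 6 genes was lower (HBZ) and 0 were higher, where 10.2% of all genes were lower and 8.08% higher. The whole table held 888 higher and 1125 lower genes at this threshold, or 1116 and 941 when the 20 most abundant genes were left out of the totals used for scaling, and 737 and 1262 when the 6 globin genes were left out of them. At 1.5-fold, 3 were lower (HBZ, HBA1 and HBA2) and 1 was higher (HBE1), where 21.6% of all genes were lower and 20.8% higher. These counts describe genes whose values were known when they were chosen, and nothing is read from them.

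The balance of the loci was compared within each library, where the scaling between libraries plays no part. The trend of fold changes with GC content, described below, does not cancel in these ratios, which are given without a correction for it. The alpha-like genes summed to 1470 and 644.7 FPKM. The beta-like genes summed to 2980 and 3302 FPKM. The ratio of alpha-like to beta-like FPKM was thus 0.493 in the untreated and 0.195 in the bort library, 2.53-fold lower. Without the embryonic genes HBZ and HBE1, the ratio was 0.347 and 0.188. The alpha-like share of the 6 genes was 33.0% in the untreated and 16.3% in the bort library.

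The embryonic genes moved apart. HBZ made up 39.7% of the alpha-like FPKM in the untreated library and 24.6% in the bort library, and its ratio to HBA1 went from 0.986 to 0.487. HBE1 made up 14.2% of the beta-like FPKM in the untreated library and 21.5% in the bort library, and its ratio to HBG1 went from 0.286 to 0.462. Because these shifts were opposite, HBZ and HBE1 together held 22.7% of the FPKM of the 6 genes in the untreated and 22.0% in the bort library. The ratio of HBZ to HBE1 was 1.38 in the untreated and 0.223 in the bort library, 6.16-fold lower. These 2 genes differ in GC content, so the trend with GC content does not cancel in this ratio. The log2 fold changes of HBZ and HBE1 were -1.88 and 0.74 as deposited, and -1.25 and 0.83 with the trend removed.

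Another globin gene of each locus, HBQ1 and HBD, was listed at a lower level. HBQ1 was lower in the bort library, as were HBZ, HBA1 and HBA2, and HBD was slightly higher. HBQ1, the theta-globin gene of the alpha locus, was at 54.4 and 10.8 FPKM, a log2 fold change of -2.23, with 81 genes below it. With the trend with GC content removed, the value for HBQ1 was -1.40. HBD, which encodes the delta chain of the minor adult haemoglobin, was at 7.34 and 9.51 FPKM, a log2 fold change of 0.33. Of all genes, 3565 lay above HBD, and its value was 0.38 with the trend removed. With HBQ1 and HBD added, the ratio of alpha-like to beta-like FPKM was 0.510 and 0.198. HBM of the alpha locus, the globins of other tissues MB, CYGB and NGB, and the transcripts BGLT3, HBZP1 and HBAP1 of the globin loci were not listed.

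The alpha-like genes also differ from the beta-like genes in base composition. The transcripts of HBZ, HBA1 and HBA2 in GENCODE 29 had a GC content of 65.2%, 64.5% and 64.4%, against 51.4%, 49.8% and 51.0% for HBE1, HBG1 and HBG2. Over the 10907 genes with a transcript there, log2 fold changes fell with GC content (Spearman rho -0.48, a description across genes of the same pair of libraries). These genes were divided into 10 classes of equal size by GC content. The class with the highest GC content holds HBZ, HBA1 and HBA2, and its median log2 fold change was -0.63. Of its 1091 genes, 84 lay below HBZ, 404 below HBA1 and 403 below HBA2. HBE1 and HBG2 fell in a class of 1090 genes with a median of -0.098, where 104 genes lay above HBE1 and 477 above HBG2. HBG1 fell in a class with a median of 0.054, close to its own value.

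With this trend removed by a lowess fit, the log2 fold change was -1.25 for HBZ, -0.28 for HBA1 and for HBA2, and 0.83 for HBE1. It was 0.055 for HBG1 and 0.052 for HBG2. The mean log2 fold change of the alpha-like genes was -1.20 as deposited and -0.60 with the trend removed, and that of the beta-like genes was 0.26 and 0.31. The distance between the loci was thus -1.46 as deposited and -0.92 with the trend removed. HBZ and the alpha genes have like GC contents, and the difference between the log2 fold change of HBZ and the mean of HBA1 and HBA2 was -1.01 as deposited and -0.97 with the trend removed. The difference between HBE1 and the mean of HBG1 and HBG2 was 0.73 and 0.78. The reason why fold changes followed GC content was not tested.

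The division of fragments within the near-identical pairs is uncertain. In 1 protein-coding transcript per gene of GENCODE 29, the coding sequences of HBG1 and HBG2 differed at 2 of 444 bases, and 39.0% of the 100-base windows of the HBG1 transcript occurred unchanged in that of HBG2. The coding sequences of HBA1 and HBA2, of 429 bases, were identical, and 79.7% of the 100-base windows of the HBA1 transcript occurred in that of HBA2. Summed, the HBG1 and HBG2 pair was at 2555 and 2592 FPKM, and the HBA1 and HBA2 pair at 886.1 and 486.2 FPKM. In the transcripts compared, the embryonic genes did not share this limit of near-identical sequence. The annotated span of HBE1 does overlap that of HBG2, as described below, and assignment of fragments there was not tested. HBZ was 68.5% identical to HBA1 over the coding sequence, HBE1 was 83.6% identical to HBG1, and 0 of their 100-base windows were shared. The ratio of HBG1 to HBG2 was 1.39 in the untreated and 1.45 in the bort library.

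The genes around the loci were described next. Of 11 neighbours of the alpha locus 8 were listed. At 2-fold 3 of these were lower and 1 higher, where 10.2% of all genes were lower and 8.08% higher. The median log2 fold change of the listed neighbours was -0.62 as deposited, beside a median of 0.0049 over all genes. With the GC trend removed it was -0.16. MPG, a DNA glycosylase gene, was at 48.9 and 15.6 FPKM, a log2 fold change of -1.59. RHBDF1, which encodes an inactive rhomboid protein, was at 1.26 and 3.82 FPKM, a log2 fold change of 1.10. NPRL3, whose introns hold the alpha-globin enhancers, was at 11.05 and 6.93 FPKM, a log2 fold change of -0.60. NPRL3 lies next to HBZ and was named for its enhancers after its value was seen.

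Of 18 neighbours of the beta locus 9 were listed. At 2-fold 2 of these were higher and 0 lower, where 8.08% of all genes were higher and 10.2% lower. The median log2 fold change of the listed neighbours was -0.030 as deposited. With the GC trend removed it was -0.22 over the 8 that have a GC content. OR51B5 has none, so the 2 medians are over different genes. Both of the higher genes are olfactory receptor genes, a family expressed mainly in the nose. OR51B5 was at 3.90 and 36.2 FPKM, a log2 fold change of 2.93, with 15 of all genes above it. OR51B4 was at 6.20 and 15.5 FPKM, a log2 fold change of 1.19, and was named after its value was seen. In GENCODE 29 the annotated spans of HBE1 and HBG2 overlap each other and extend over both genes on the same strand, because some of their annotated transcripts start far upstream. They also extend over OR51I1, another olfactory receptor gene, which was at 4.34 and 4.22 FPKM. Fragments of such transcripts could be assigned to more than 1 gene, and this was not tested. STIM1, which encodes a calcium sensor, had the most negative value of these neighbours, at 7.40 and 3.51 FPKM, a log2 fold change of -0.90.

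**Figure D2:**
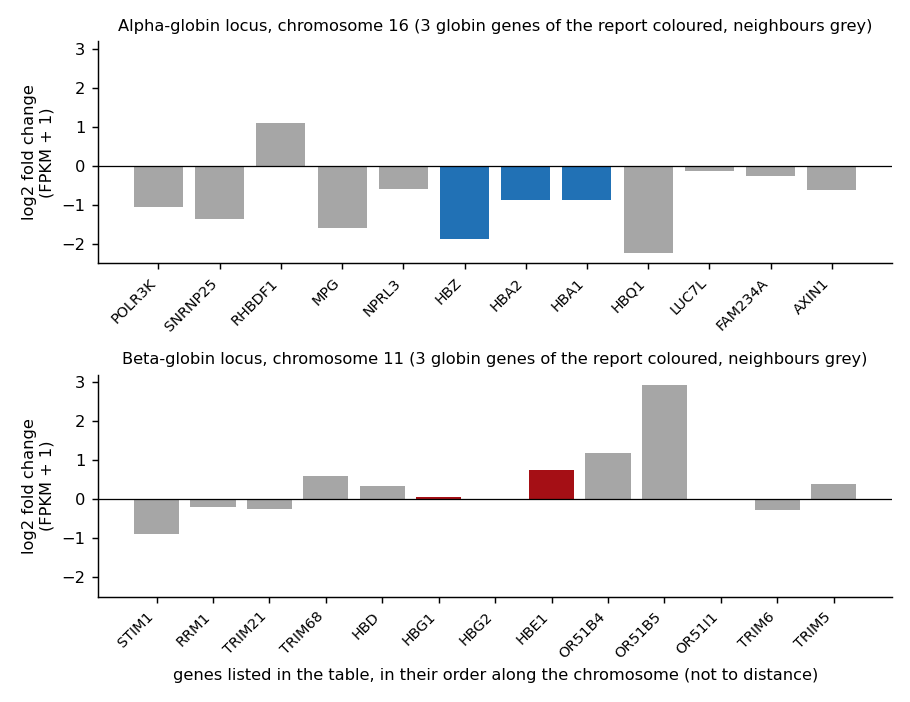
Log2 fold change on FPKM + 1, bort against untreated (y axis, the same for both panels), of the listed genes of the alpha locus (top) and the beta locus (bottom), in their order along the chromosome (x axis, distances not drawn). The globin genes of the alpha locus lie between -0.86 and -2.23 with HBQ1 included, while the drawn globin genes of the beta locus lie between -0.017 and 0.74 with HBD included, and OR51B5 is the tallest bar.

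Globin genes are switched on by GATA1, KLF1 and their partners, which bind promoters and distant enhancers, and embryonic and fetal genes are silenced later by repressor complexes. All 13 activators of the list were in the table. At 2-fold 6 of them were lower in the bort library and 0 were higher, where 10.2% of all genes were lower and 8.08% higher. In the class with the highest GC content, which holds KLF1 and ZFPM1, 31.6% of genes were lower. The other lower activators fell in classes where 11.2% to 20.5% of genes were lower. The activators had a median log2 fold change of -0.97 as deposited and -0.53 with the GC trend removed. ZFPM1, a partner of GATA1, was at 8.93 and 2.03 FPKM. KLF1, an activator of the adult programme, had the most negative log2 fold change, -3.01, from 147.1 to 17.4 FPKM. GATA1 was at 161.3 and 48.7 FPKM. LMO2, the bridging protein of the complex, was at 42.5 and 8.18 FPKM. TAL1, its DNA-binding partner, was at 11.1 and 22.0 FPKM, the most positive log2 fold change of the list at 0.93. GATA1, LMO2 and ZFPM1 were named for their role or GC content after their values were seen.

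Of 20 genes that take part in silencing embryonic or fetal globin genes 19 were listed. At 2-fold 4 of these were lower and 0 higher, where 10.2% of all genes were lower and 8.08% higher. The median log2 fold change of the listed genes was -0.37 as deposited and -0.54 with the GC trend removed. IKZF1, a zinc finger factor of blood cells, was at 6.92 and 1.83 FPKM, the most negative log2 fold change of the list at -1.48. NR2C2, a nuclear receptor that binds the promoters of embryonic and fetal globin genes, was at 1.82 and 2.34 FPKM, the most positive at 0.24. MYB was at 24.6 and 8.26 FPKM and the DNA methyltransferase DNMT1 at 37.1 and 16.2 FPKM, both named after their values were seen. SOX6 was not listed.

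**Figure D3:**
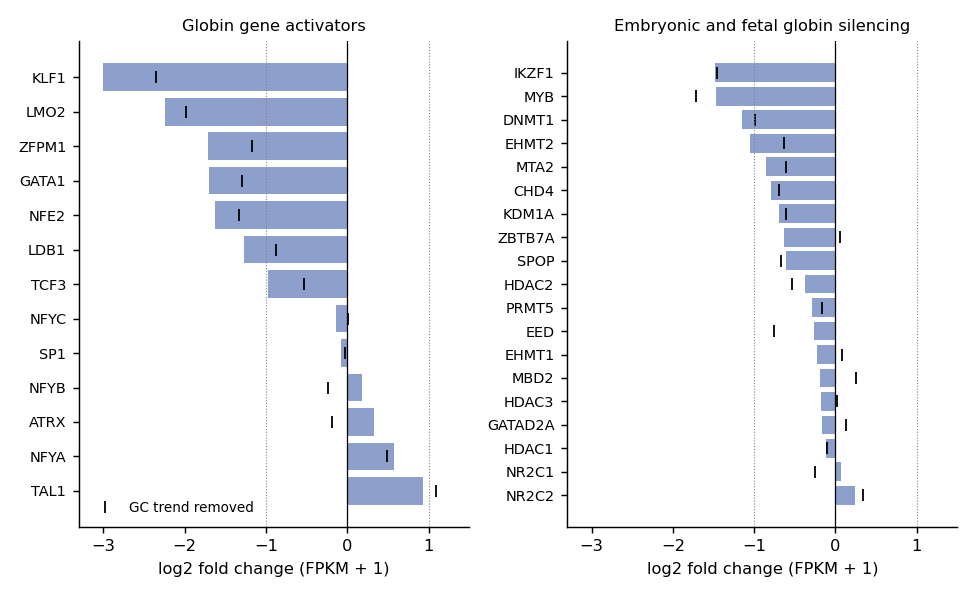
Log2 fold change on FPKM + 1, bort against untreated (x axis), of the listed genes of 2 lists, with globin gene activators on the left and genes of embryonic and fetal globin silencing on the right. Bars are values as deposited, black ticks are values with the GC trend removed, and dotted lines mark 2-fold; 6 of 13 bars on the left and 4 of 19 on the right pass the lower line.

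Regulators known from the fetal stage were listed for 5 of 6 genes. HIC2, a repressor that is known to favour fetal globin, was at 43.9 and 9.42 FPKM, a log2 fold change of -2.11. IGF2BP1, an RNA-binding protein of fetal cells, was at 41.2 and 27.2 FPKM, and LIN28B, which holds back let-7 microRNAs, was at 8.29 and 6.53 FPKM. IGF2BP3 was at 8.03 and 11.6 FPKM. NR2F2, a nuclear receptor, was at 25.9 and 39.9 FPKM, the most positive log2 fold change of the list at 0.61. HIC2 alone passed 2-fold, where 10.2% of all genes were lower and 8.08% higher.

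Genes that keep globin and haem in balance were mostly within 2-fold on the log2(FPKM + 1) scale. Of 9 genes 8 were listed. At 2-fold 1 was higher and 1 lower, where 8.08% of all genes were higher and 10.2% lower. BACH1, a repressor that haem inactivates, was at 3.90 and 9.67 FPKM, a log2 fold change of 1.12. HMOX2, a haem oxygenase, was at 23.2 and 10.9 FPKM, a log2 fold change of -1.02. AHSP, the chaperone of free alpha chains, was at 1.99 and 0.4996 FPKM, 3.99-fold lower as a ratio of FPKM and just short of 2-fold with 1 FPKM added, at a log2 fold change of -0.996. EIF2AK1, the kinase that halts globin translation when haem is short, was at 28.3 and 28.6 FPKM. AHSP and EIF2AK1 were named for their role in this balance after their values were seen, and HMOX1 was not listed.

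The 4 genes of globin mRNA stability were all listed. At 2-fold 0 were higher and 0 lower, where 8.08% of all genes were higher and 10.2% lower, so most genes of the table were also within 2-fold. PCBP1 and PCBP2, which bind and stabilise the alpha-globin mRNA, were at 159.7 and 188.1 FPKM for PCBP1 and at 43.0 and 45.9 FPKM for PCBP2. The poly-A binding protein gene PABPC1 was at 232.1 and 307.2 FPKM, and PABPC4 at 39.9 and 28.5 FPKM.

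The genes nearest to 4 of the globin genes were found by the distance between log2(FPKM + 1) values over the 2 libraries, a measure of like levels only. For HBG1 they were the chaperone gene HSP90AB1 at 1542 and 1713 FPKM, HBG2, and the ribosomal protein gene RPS12. Those of HBE1 included the ribosomal protein gene RPL10A at 404.1 and 618.2 FPKM and the chaperone gene HSP90AA1 at 526.1 and 688.1 FPKM. For HBZ they were NME1-NME2, HIST1H2BK and COX8A, and for HBA1 they were ANP32B, TUBB and CHCHD2. The nearest gene to HBZ, NME1-NME2, stood at a distance of 0.54, against 0.17 for HSP90AB1 and HBG1.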

How the data were processed

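RNA from 2 cultures was sequenced, 1 library per group, and groups were taken from the treatment labels. The deposited table holds FPKM, which the authors made with HISAT2 2.0.4 and StringTie 1.2.3, per the labels on GRCh37. The methods name a stranded KAPA kit and the labels a TruSeq kit. Depth is unknown. Each gene reaches 0.501 FPKM or more in at least 1 library, and genes lower than this in both were not analysed here.

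Fold changes are differences of log2(FPKM + 1), a scale that understates changes of low genes. No test was run. Scalings, pseudocounts, a filter and a GC correction (lowess, span 0.3) were tried as alternatives. GC content was the median over the protein-coding transcripts of GENCODE 29 (GRCh38), matched by gene identifier for 99.3% of genes, so no coordinates are given. The calculations were tested on simulated data. The globin genes, the gene lists and the comparisons were chosen with earlier results of these data known. Genes named are the 6 globin genes, each list's largest rise and fall, all genes of lists with 6 or fewer listed, and the 3 nearest in level, of which 1 is not reported here; others are marked. Python 3.11.15, numpy 2.4.6, pandas 2.3.3, statsmodels 0.14.6 and matplotlib 3.10.9 were used.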

Additional observations from a re-analysis of the deposited data

How the results depend on the processing

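No paired analysis was possible because there is a single library in each group, and none could be left out. HBZ, HBA1, HBA2 and HBE1 kept their direction and their side of 2-fold under all 10 or 11 alternatives run for each. Their log2 fold changes ranged from -1.96 to -1.24, from -0.94 to -0.23, from -0.95 to -0.23 and from 0.66 to 0.85. HBG1 reversed to -0.035 when scaled to totals without the 6 globin genes and to -0.0066 with the median of its GC class (10 classes) subtracted, an alternative chosen after seeing the data. HBG2 reversed to 0.090 with upper quartile scaling, 0.095 with totals without the 20 most abundant genes, 0.052 with the GC trend removed, 0.080 with the GC class and 0.021 when summed with HBG1. The mean alpha-like minus beta-like log2 fold change of -1.46 was -0.92 with the GC trend removed and -0.87 with the GC class, and HBZ minus the alpha genes was -0.97 with the trend removed, all under 2-fold and chosen after seeing the data. The GC content of the transcripts moved with these values, and why was not tested. HBE1 made up 22.2% of HBE1 and HBG1 in the untreated library, against 14.2% with HBG2 counted, by construction. Over all genes, 888 were higher and 1125 lower by 2-fold. A pseudocount of 0.1 FPKM gave 1576 higher, and none gave 1654 and 1708, with the 49 genes at 0 left out. The GC trend removed gave 686 lower and the GC class 710. Thresholds of 1.5-fold and 4-fold gave 2282 and 2378, and 92 and 135. The share of higher among these genes was 44.1%, against 54.3% with totals without the 20 most abundant genes (1116 higher and 941 lower), 36.9% with totals without the 6 globin genes (737 and 1262), 53.9% after upper quartile scaling and 53.2% after removal of the GC trend. Since depth is unknown, the counting error of these values is unknown too.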

Other observations

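The erythroid marker genes outside the globins went both ways. Of the 12 listed, 4 were lower and 0 were higher by 2-fold or more in the bort library. Over all genes 10.2% were lower and 8.08% higher. The median log2 fold change of the 12 was -0.49, beside 0.0049 over all genes. With the GC trend removed it was -0.59. GYPC, which encodes glycophorin C of the red-cell membrane, was at 75.0 FPKM without bort and 22.5 FPKM with it, the most negative log2 fold change of this list at -1.69. RHAG, which encodes the Rh-associated glycoprotein, was at 221.8 and 363.3 FPKM, the most positive at 0.71. SLC4A1, EPB42 and TSPO2 were not listed. The 8 listed monocytic and myeloid markers had a median log2 fold change of 0.69, or 0.95 with the GC trend removed. Of these 8 markers, 2 passed 2-fold upwards and 0 downwards. The 2 higher ones were LYZ, the lysozyme gene, from 7.61 to 28.7 FPKM, and CD68, a gene of macrophage lysosomes, from 5.94 to 20.2 FPKM. AZU1 had the most negative log2 fold change of this list, -0.52, at 0.584 and 0.105 FPKM. CD68 was named after its value was seen. Neither list holds any of the 6 globin genes.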
